A study of Mus musculus with 23 samples.

Results

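Plvap-high endothelial cells are the brain endothelial cells of these libraries that carried at least 3 unique molecular identifiers (UMIs, counts of single captured RNA molecules) of Plvap. Plvap encodes the protein of the diaphragms that span endothelial fenestrae and the necks of caveolae. The cells were chosen by their measured UMIs. Barcodes under 500 genes, under 800 UMIs or above 10% mitochondrial UMIs were left out. A cell then needed a UMI of at least 3 of the 8 endothelial genes Cldn5, Flt1, Egfl7, Ptprb, Esam, Cdh5, Tie1 and Emcn. Their summed UMIs, with those of Plvap, had to reach 3 times the sum of 8 genes of other cells, Aqp4, Gja1, Cx3cr1, P2ry12, Mog, Mag, Kcnj8 and Acta2. These criteria found 353 cells among 110828 endothelial-gated cells and 249715 barcodes that passed the quality filter. The other 110475 endothelial-gated cells, with 0 to 2 Plvap UMIs, are called the other endothelial cells.

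Most brain capillaries form the blood-brain barrier, whose endothelium has tight junctions, little vesicular transport and dedicated transporters, and is kept in that state by Wnt/β-catenin signalling. The choroid plexus and the circumventricular organs, such as the median eminence, instead hold fenestrated capillaries, which let plasma solutes pass and are maintained by vascular endothelial growth factor (VEGF). Plvap is silenced as barrier vessels mature and stays on in fenestrated ones, so it is a standard marker of vessels outside the barrier.

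The study asked which brain cells take up antibodies built to cross the barrier. ATV stands for antibody transport vehicle. ATV-TfR (DNP02_hIgG1_LALAPG_ATV35.23.2) binds the transferrin receptor, encoded by Tfrc, and was given to TfR mu/hu knock-in mice. ATV-CD98hc (DNP02 LALAPG LLB2-10-8 monovalent) binds CD98hc, encoded by Slc3a2, and was given to CD98hc mu/hu knock-in mice. The control IgG (DNP02_hIgG1_LALAPG) was given to C57BL/6 mice, so treatment and genotype cannot be told apart. All mice were 12 weeks old (3.3 months in the labels) and received 45 mg/kg of AF647-labelled antibody intravenously 24 hours before tissue was taken. The brains lacked olfactory bulb, cerebellum, pons and medulla, and were dissociated with actinomycin D and anisomycin, inhibitors of transcription and translation. Live cells were sorted by AF647 signal into negative, low, medium and high bins, with the positive cells of ATV-TfR mice split into tertiles and the same gates used throughout. Each of the 2 pools per treatment held 1 male and 1 female mouse. By the labels, roughly 30% of cells were positive after ATV-TfR, 20% after ATV-CD98hc and 1% after the control antibody. The 23 libraries used here lack the negative bin of control IgG pool 1.

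Most endothelial-gated cells had no Plvap UMI. Of the endothelial-gated cells, 110277 had no Plvap UMI, 179 had 1 and 19 had 2. At the edge of the rule, 16 cells had 3 Plvap UMIs and 337 had 4 or more, and the median over the 353 cells was 10 UMIs (range 3 to 47). Just inside the threshold, cells with 3 Plvap UMIs had 354 CPM (the summed UMIs of a gene scaled to a fixed total) of Esm1 and 2022 CPM of Cldn5. Just outside it, cells with 2 Plvap UMIs had 109 CPM of Esm1 and 2738 CPM of Cldn5. Other genes were closer on the 2 sides, with 1129 against 940 CPM of Igfbp3 and 1062 against 872 CPM of Plpp1. Cells with 1 Plvap UMI had only 17.3 CPM of Esm1 and a median of 7097 UMIs per cell. The values at the threshold are a description, since Plvap chose the cells.

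**Figure D1:**
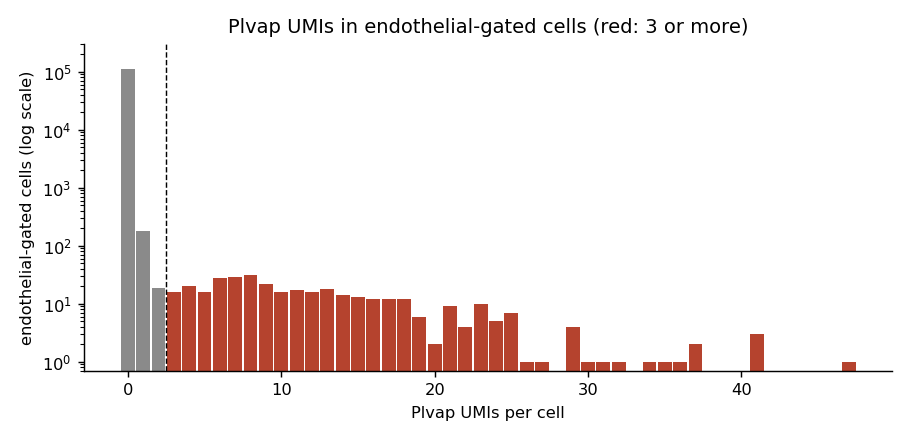
Number of endothelial-gated cells (vertical axis, log scale) by Plvap UMIs per cell (horizontal axis), with the 353 Plvap-high cells in red and the dashed line at the threshold of 3 UMIs. The red cells spread around a median of 10 UMIs, and only 19 cells sit at 2 UMIs.

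As a background for stray RNA, 1.57% of 83250 astrocyte-gated cells (95% exact interval 1.49 to 1.66%, median depth 4505 UMIs) carried any Plvap UMI, and 14 of them carried 3 or more. In microglia-gated cells the share with a Plvap UMI was 0.606% (0.481 to 0.752%, median depth 3496 UMIs), and in the other endothelial cells it was 0.179% (0.155 to 0.206%, median depth 3493 UMIs). The Plvap-high cells had a median depth of 3767 UMIs (822 to 22971). In 22 of the 353 cells (6.23%) the barcode sequence also occurred in another library, against 6.14% of all barcodes that passed the filter, and no 2 Plvap-high cells shared one. Library totals ran from 1861238 to 90307818 UMIs, with 526 to 20570 barcodes passing the filter per library.

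The labelled identity was checked against the fixed markers Plvap, Emcn and Cdh5, all of them used by the rule. In the 9 libraries with at least 20 cells of each class, Emcn, an endothelial sialomucin, had a median of 2855 CPM in Plvap-high cells (2223 to 3709) and 626 CPM in the others (392 to 928). Cdh5, VE-cadherin, had 821 CPM (493 to 982) against 401 CPM (368 to 530). Cldn5, the main claudin of barrier tight junctions, went the other way, with 160 CPM (11.3 to 2881) against 5791 CPM (4802 to 8216). These values carry no test because the rule read these genes. Of 6 lymphatic endothelial markers, Lyve1, Ccl21a and Mmrn1 had no UMI in any Plvap-high cell, and the 6 together summed to 13.4 CPM. Among 7 pituitary endocrine genes, Cga, Gh, Prl, Pitx1, Tshb and Chga were at 0.

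Plvap-high cells were found mainly in the bins with little antibody signal. In ATV-TfR they were 30.4% of endothelial cells in the negative bin of pool 1 (48 of 158 cells, 95% exact Clopper-Pearson interval 23.3 to 38.2%) and 26.3% in pool 2 (26 of 99, 17.9 to 36.1%). In the low bin they were 4.68% (20 of 427, 2.88 to 7.14%) and 6.64% (20 of 301, 4.11 to 10.1%). In the medium bin there were 0 of 3139, which allows a share of up to 0.0956% by the limit used for a count of 0 throughout (3 cells of the total; the exact interval reaches 0.117%), and 2 of 2878 (0.0695%, 0.00842 to 0.251%). The high bin held 1 of 18530 (0.0054%, 0.000137 to 0.0301%) and 0 of 16904, which allows up to 0.0177% (exact interval to 0.0218%). In both pools the intervals of the negative, low and medium bins do not overlap. The intervals cover counting error only.

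In ATV-CD98hc the share also fell from bin to bin. It was 7.0% (7 of 100, 2.86 to 13.9%) and 11.1% (7 of 63, 4.59 to 21.6%) in the negative bin, and 2.11% (54 of 2557, 1.59 to 2.75%) and 2.10% (59 of 2806, 1.60 to 2.70%) in the low bin. In the medium bin it was 0.109% (17 of 15545, 0.0637 to 0.175%) and 0.111% (20 of 18071, 0.0676 to 0.171%). The high bin had 0.0306% (3 of 9791, 0.00632 to 0.0895%) and 0.0236% (3 of 12737, 0.00486 to 0.0688%). The 2 pools were close to each other in every bin, and of the 170 Plvap-high cells of this treatment 113 came from the low bin.

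In control IgG no fall was seen from the negative to the medium bin. Its negative library held 0.702% Plvap-high cells (21 of 2993, 0.435 to 1.07%), and its low bin 0.533% (6 of 1126, 0.196 to 1.16%) and 1.29% (32 of 2472, 0.887 to 1.82%). The medium bin had 2.27% (1 of 44, 0.0575 to 12.0%) and 10.3% (6 of 58, 3.89 to 21.2%), from few cells. The high bin held 0 of 13 and 0 of 16 endothelial cells, which allow shares of up to 23.1% and 18.8%, so that no fall or rise was detectable there at this depth.

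The trend was measured as the slope of the log odds of the share over the 4 bins, with 0.5 cells added to each side. The slope was -3.21 per bin in ATV-TfR (n = 8 libraries, exact permutation test, two-sided p = 0.000794, adjusted over the 3 treatments p = 0.00119) and -2.03 in ATV-CD98hc (n = 8, exact p = 0.000794, adjusted p = 0.00119), both at the smallest p the design can give. In control IgG it was 0.662 (n = 7, exact p = 0.0857), which did not pass. The 2 pools of ATV-TfR had slopes of -3.15 and -3.27, those of ATV-CD98hc -1.92 and -2.15, and those of control IgG 0.927 and 0.653. The high bins of control IgG held no Plvap-high cell, so its slopes lean on the 0.5 cells added there. Counted among all filtered barcodes in place of endothelial cells, the slope was -1.66 for ATV-TfR (exact p = 0.00159), -0.61 for ATV-CD98hc (exact p = 0.0183) and -0.40 for control IgG (exact p = 0.297). On that scale ATV-CD98hc was highest in the low bin, at 0.299% and 0.297%, against 0.105% and 0.202% in the negative bin, so there the fall set in only after the low bin. The bins are the sort itself, and the number of endothelial cells differed between them, from 99 to 18530 in ATV-TfR.

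**Figure D2:**
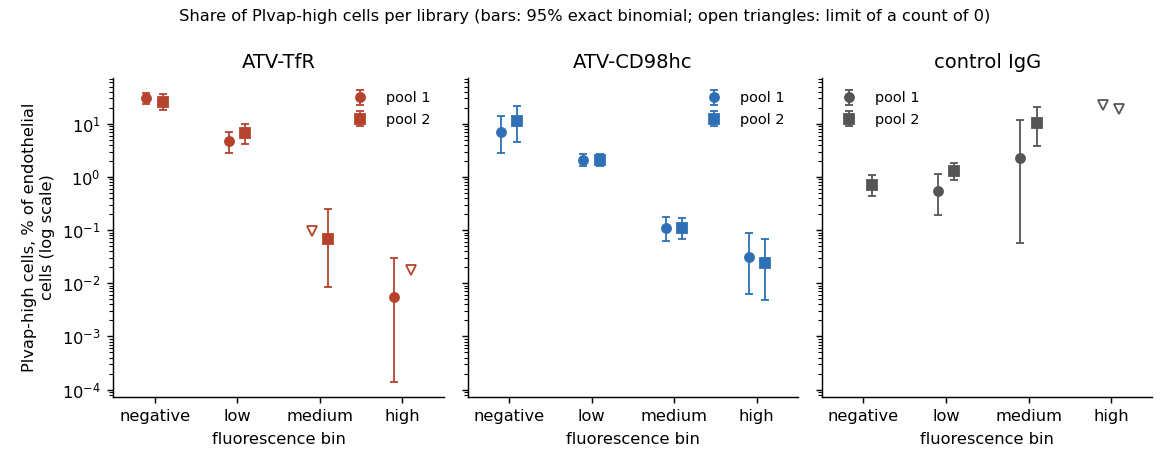
Plvap-high cells as a percentage of endothelial cells (vertical axis, log scale) in each fluorescence bin (horizontal axis), 1 panel per treatment and 1 symbol per pool, with 95% exact binomial intervals. The share runs from 30.4% to under 0.1% over the ATV-TfR bins and from 11.1% to 0.0236% over the ATV-CD98hc bins, while control IgG lies between 0.533% and 10.3% where any cell was found, and open triangles mark the limit of a count of 0.

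Weighting each ATV-TfR bin by the 30% positive cells in the labels, with the positive part divided into tertiles, placed 96.7% (pool 1) and 95.7% (pool 2) of Plvap-high cells in the negative bin. For the other endothelial cells the same weights gave 6.83% and 6.20% in the negative bin and 75.6% and 77.5% in the high bin. The classes thus had opposite places in the distribution of antibody signal in both pools, as far as the labels' rounded percentages allow.

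Gene expression was compared between Plvap-high and other endothelial cells of the same library, over the 9 libraries with at least 20 cells of each class. They were the negative and low libraries of both ATV-TfR pools, the low libraries of both ATV-CD98hc pools, the medium library of ATV-CD98hc pool 2, and the negative and low libraries of control IgG pool 2. These held 29584 of the 110475 other endothelial cells and no high bin, so the comparison leaves out the cells with the most antibody signal. Summed UMIs were tested with edgeR's quasi-likelihood test and library as a block, with Benjamini-Hochberg adjustment over all genes. Of 6152 genes tested, leaving out the rule's own, 827 were higher and 832 lower in Plvap-high cells at an adjusted p below 0.05, which is 27.0% of the genes, 13.4% higher and 13.5% lower. The median log2 fold change over these genes was -0.05. For 414 of them (6.73%) the values of the classes did not overlap between any of the 9 libraries. Plvap chose the cells, so genes whose level follows that of Plvap among single cells were favoured.

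Genes of fenestrated and peripheral endothelium were the most raised list. Of 17 listed genes 11 passed the filter on low counts, and 10 of these were higher, with a list median log2 fold change of 6.28. Genes such as Esm1 and Gpihbp1, nearly absent from the other cells, passed the filter only through the class where they were high, so this count and median are a description. Esm1, a proteoglycan secreted by VEGF-stimulated endothelium, had a median of 746 CPM in Plvap-high cells (312 to 1030) and 0.13 CPM in the others (0 to 1.71, 21 UMIs in all), against 929 UMIs in Plvap-high cells. The libraries of the classes did not overlap.

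Plpp1, a phosphatase of bioactive lipids, had 2685 CPM (1661 to 3723) against 86.4 CPM (49.7 to 191), a log2 fold change of 4.77 (SE 0.15, edgeR adjusted p = 1.1e-13). Igfbp3, an insulin-like growth factor binding protein, had 1825 CPM (1086 to 2471) against 26.6 CPM (2.50 to 92.9), a log2 fold change of 6.28. Gpihbp1, which anchors lipoprotein lipase to capillaries, had 414 CPM (136 to 542) against 0.13 CPM (0 to 1.85, 12 UMIs in all). In each of these the lowest Plvap-high library lay above the highest library of the others.

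Cd300lg, a receptor of capillary endothelium, was at 624 CPM against 1.96 CPM, and Exoc3l2 at 503 CPM against 1.25 CPM. Rgcc, a cell cycle regulator, was at 1842 CPM against 267 CPM, and the homeobox gene Meox1 at 274 CPM against 5.75 CPM. Plpp3 and Cd24a completed the 10. Nostrin, which traffics endothelial nitric oxide synthase, did not pass, with 289 CPM (155 to 540) against 358 CPM (185 to 561). The other 6 genes of the list, among them Aqp1 and Igfbp5, were not tested. By the rule for named genes, the largest rises also took in Rbp7 (592 CPM against 0.15 CPM), Btnl9 (385 against 0.072 CPM), Fam167b (430 against 1.24 CPM), Slc43a3 (395 against 1.20 CPM), the mechanosensitive channel Piezo2 (346 against 1.15 CPM) and the membrane collagen Col13a1 (574 against 2.48 CPM).

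The VEGF receptors Kdr and Flt4 were higher too, while Flt1 was read by the rule and is left out here. Of 14 genes of VEGF and angiopoietin signalling 8 were tested, 6 were higher and none lower, with a median log2 fold change of 1.06. Kdr, the main VEGF receptor, had 2290 CPM (1653 to 2994) against 277 CPM (147 to 650), a log2 fold change of 2.84 (SE 0.20, edgeR adjusted p = 4.8e-09). Nrp1, its co-receptor, had 2102 CPM (1453 to 2851) against 215 CPM (160 to 303), a log2 fold change of 3.14 (SE 0.13). Kdr and Nrp1 showed no overlap between the classes.

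Flt4, the receptor of VEGF-C, rose from 40.5 to 133 CPM, and Nrp2 from 38.5 to 275 CPM. Pdgfb, the growth factor that recruits pericytes, and the Notch ligand Dll4 rose by 0.30 and 0.56 on the log2 scale. Vegfa itself had 49.4 CPM (0 to 164) against 49.7 CPM (2.57 to 125), and Tek, the angiopoietin receptor, 365 CPM against 471 CPM, and neither passed.

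Basement membrane genes were mostly raised. Of 13 tested among 16 listed, 8 were higher and 1 lower, with a median log2 fold change of 0.74. Col15a1 and Fn1 passed the filter on low counts only through the class where they were high, so this count and median are a description. Hspg2, which encodes perlecan, had 742 CPM (570 to 834) against 85.3 CPM (62.4 to 111), a log2 fold change of 3.07 (SE 0.12). The collagen IV chains Col4a1 (1078 against 332 CPM) and Col4a2 (768 against 258 CPM) rose by 1.71 and 1.70, and Col15a1 went from 1.34 to 227 CPM. Fn1, fibronectin, was the exception, at 22.6 CPM (5.34 to 193) against 587 CPM (402 to 1073), a fall of 3.52 on the log2 scale. The 5 fibroblast markers also summed to less, 0 to 22.6 CPM in Plvap-high cells against 31.9 to 588 CPM in the others with no overlap, and the part of fibroblast RNA in this fall was not tested.

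Some caveolar genes were raised. Of 8 genes 3 were higher and none lower, with a median log2 fold change of 0.00, and the summed level of the 8 was 3098 CPM in all Plvap-high cells against 1629 CPM in the other endothelial cells. Ehd4 alone took 1283 CPM of the first sum and 91.8 CPM of the second. Cav1, the main caveolin, had 204 CPM (160 to 313) against 263 CPM (212 to 338), which did not pass (log2 fold change -0.26, SE 0.10, edgeR adjusted p = 0.068). Cavin2 and Cavin3 rose by 0.45 and 0.82 on the log2 scale. Ehd4, an ATPase of membrane trafficking, had 1268 CPM (1006 to 1570) against 95.1 CPM (85.2 to 188), a log2 fold change of 3.44 with no overlap.

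All tested transporters of the barrier list were lower. Of 18 genes 17 were tested and all 17 were called lower, with a median log2 fold change of -2.43. Genes such as Mfsd2a and Slc40a1 passed the filter on low counts only through the other class, where they were high. This count and median are therefore a description. Slc2a1, the glucose transporter of the barrier, had 67.7 CPM (21.4 to 586) in Plvap-high cells against 1328 CPM (1059 to 1704), a log2 fold change of -3.54 (SE 0.32, edgeR adjusted p = 1.1e-07). The highest Plvap-high library lay below the lowest library of the others.

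Slco1a4, an organic anion carrier, had 101 CPM (17.7 to 1132) against 1644 CPM (924 to 2958), and here 1 library overlapped. Abcb1a, the drug efflux pump P-glycoprotein, had 109 CPM (62.9 to 506) against 742 CPM (577 to 1485). Mfsd2a, which carries lysophospholipids and restrains transcytosis in barrier endothelium, had 26.5 CPM (0 to 193) against 159 CPM (74.9 to 361). The smallest falls among the 17 were those of Abcg2, by 0.79 on the log2 scale, and Slc3a2, by 0.42.

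Tight junction genes were lower in 6 of the 7 tested, with a median of -1.31. Ocln passed the filter on low counts only through the other class, where it was high, so this count and median are a description. Ocln, occludin, had 19.7 CPM (0 to 153) against 224 CPM (183 to 373), and Tjp1, the scaffold protein ZO-1, had 348 CPM (192 to 457) against 775 CPM (623 to 1412). F11r, junctional adhesion molecule A, did not pass, with 214 CPM against 179 CPM.

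Most Wnt and barrier maintenance genes were lower. Of 18 tested among 19 listed, 14 were lower and 3 higher, with a median of -2.06. Genes such as Axin2, Adgra2 and Apcdd1 passed the filter on low counts only through the other class, where they were high. This count and median are therefore a description. The β-catenin targets Lef1 (39.5 CPM, 0 to 377, against 481 CPM, 298 to 1053), Axin2 (9.87 against 81.4 CPM) and Apcdd1 (21.4 against 231 CPM) were lower. Adgra2 and Reck, the co-receptors for Wnt7, were also lower, at 9.87 against 74.9 CPM and 30.4 against 128 CPM. So were the transcription factors Sox17, Foxq1 and Foxc1.

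Receptor genes went both ways. The receptor Fzd6 (74.7 against 225 CPM) and the co-receptor Lrp6 (61.8 against 141 CPM) fell by 1.51 and 1.10 on the log2 scale, while Fzd4, Tspan12 and Lrp5 rose. Fzd4, the receptor of Norrin and Wnt, had 249 CPM (158 to 316) against 78.7 CPM (55.6 to 133), a log2 fold change of 1.57 (SE 0.12, edgeR adjusted p = 1.4e-08). Tspan12, its co-activator for Norrin, had 239 CPM against 68.3 CPM, and Lrp5, the co-receptor, 96.1 CPM against 52.0 CPM. Foxf2 did not pass.

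Markers of arteries, veins and barrier capillaries were largely lower. Among 6 tested venous genes 5 were lower, including Vwf, Nr2f2, Vcam1 and Tmem252, and Ephb4, the venous ephrin receptor, was higher (173 against 58.7 CPM). Among 6 tested arterial genes Sema3g, Hey1, Mgp and Stmn2 were lower, and Efnb2, the arterial ephrin ligand, was higher (173 against 43.2 CPM). Of 8 capillary genes 6 were lower, and Ivns1abp was higher (374 against 92.0 CPM). Stmn2 had the largest fall of all genes named by rule, 4.28 on the log2 scale (8.82 against 244 CPM). Edn3, endothelin 3, followed (0 against 79.4 CPM). Both passed the filter on low counts only through the other class, where they were high, so these falls and the marker counts are a description. Mural cell RNA was lower as well: the 7 mural markers summed to 22.6 to 640 CPM in Plvap-high cells and to 605 to 4079 CPM in the others. The part of this RNA and of the fibroblast RNA given above in the falls was not tested.

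**Figure D3:**
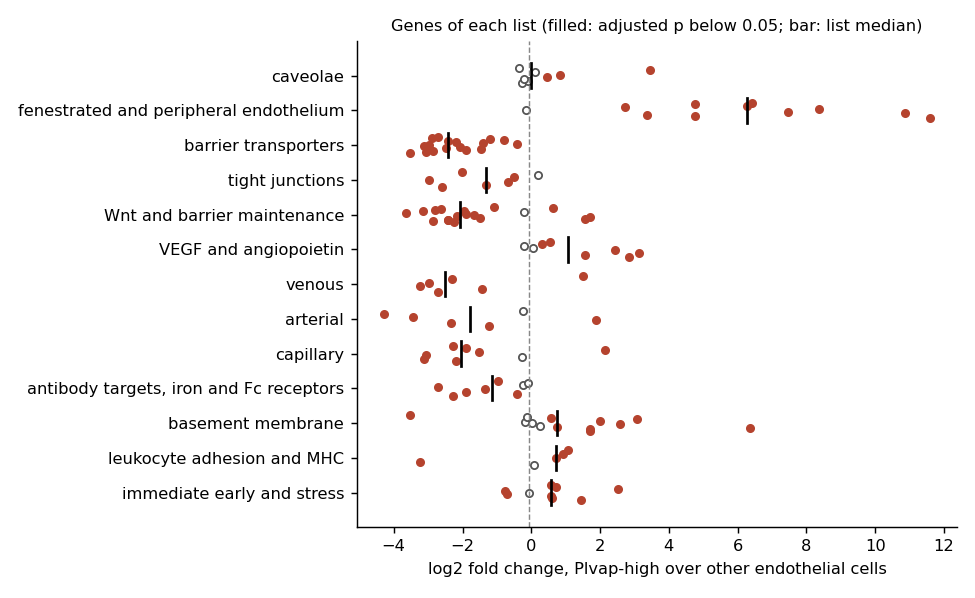
Log2 fold change of each tested gene (horizontal axis) in Plvap-high over other endothelial cells, by gene list (vertical axis), with filled points for an adjusted p below 0.05, a black bar at each list's median and a dashed line at the median of all genes tested. Fenestrated endothelium genes have a median of 6.28, and barrier transporters all lie below 0 with a median of -2.43.

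The receptors that the antibodies bind differed between the classes to different degrees. Tfrc, which imports transferrin-bound iron, had 5.34 and 0 CPM in Plvap-high cells of the ATV-TfR negative libraries (pools 1 and 2) and 0 and 17.6 CPM in the low libraries. The other endothelial cells of those libraries had 56.3, 79.7, 34.0 and 47.3 CPM. In ATV-CD98hc, Plvap-high cells had 62.9 and 52.1 CPM in the low libraries and 160 CPM in the medium one, against 218, 233 and 416 CPM.

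In control IgG the values were 20.4 CPM in the negative and 94.9 CPM in the low library, against 444 and 595 CPM. Tfrc was thus lower in Plvap-high cells in 9 of 9 libraries, with a log2 fold change of -2.29, from 64 UMIs in Plvap-high cells. It passed the filter on low counts only through the other class, so this value is a description. Within clusters 1 and 2, described further on, the summed level was 8.24 CPM.

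Slc3a2, CD98 heavy chain, differed far less. It had a median of 221 CPM (95.6 to 305) in Plvap-high cells and 245 CPM (174 to 517) in the others, with overlap, a log2 fold change of -0.42 (SE 0.15, edgeR adjusted p = 0.042). The call was lost in 8 of 16 alternatives, where adjusted p reached 0.36. Slc7a5, the light chain partner that carries large neutral amino acids, had 73.9 CPM (22.6 to 514) against 431 CPM (139 to 1074), a log2 fold change of -1.91 (SE 0.23, edgeR adjusted p = 3.3e-06).

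Fcgrt, the neonatal Fc receptor that recycles IgG, had 165 CPM (79.0 to 313) against 416 CPM (249 to 640) and fell by 1.35 on the log2 scale (SE 0.13, edgeR adjusted p = 2.6e-07). Slc40a1, the iron exporter ferroportin, was lower, at 9.87 against 154 CPM. The ferritin chains Fth1 (1963 against 1955 CPM) and Ftl1 (969 against 1068 CPM) did not pass. Of the 12 genes of antibody targets, iron handling and Fc receptors 8 were tested, 6 were lower and none higher, with a median of -1.15. Tfrc and Slc40a1 passed the filter on low counts only through the other class, where they were high. This count and median are therefore a description.

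**Figure D4:**
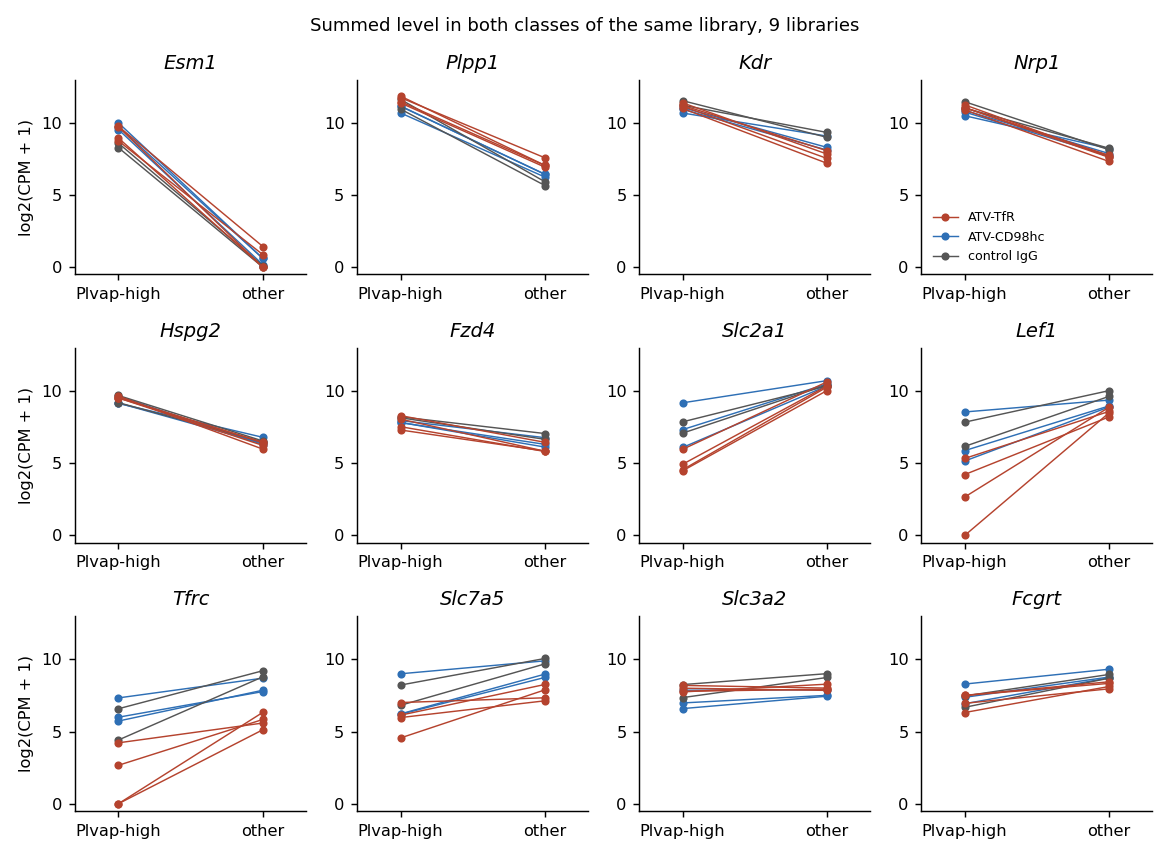
Level of 12 genes as log2(CPM + 1) (vertical axes) in Plvap-high and other endothelial cells (horizontal axes), with a line joining the classes of each of the 9 libraries and colours for treatments. Esm1, Plpp1, Kdr, Nrp1, Hspg2 and Fzd4 fall from left to right in every library, Slc2a1, Lef1, Tfrc, Slc7a5 and Fcgrt rise in every library, and Slc3a2 lies close to level.

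Against venous-gated endothelial cells, which are other endothelial cells with a UMI of at least 2 of 5 venous marker genes (among them Vwf, Nr2f2, Lrg1 and Tmem252), the pattern was much the same. In the 7 libraries with at least 20 cells of both classes, 564 genes were higher and 519 lower of 4058 tested (26.7%, with 13.9% higher and 12.8% lower) by edgeR. Of the 1272 genes called in the first comparison and also tested here, 969 were called in the same direction and 0 in the opposite direction. Plvap-high cells enter both comparisons, and venous-gated cells are part of the other endothelial cells.

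Plpp1 (log2 fold change 5.43, SE 0.18), Kdr (2.28, SE 0.14) and Nrp1 (3.02, SE 0.15) were higher than in venous-gated cells. Slc2a1 (-2.91, SE 0.27), Lef1 (-2.66, SE 0.31), Tfrc (-2.41) and Fcgrt (-1.49, SE 0.14) were lower. The value of Tfrc is a description here too. All 16 tested barrier transporters were lower. Of the caveolar genes Ehd2 was also called here (0.76), and F11r was higher (0.54) while the other 6 tight junction genes tested were lower.

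The Plvap-high cells were not uniform. Leiden clustering of the 353 cells alone gave 4 clusters, reported as a description with no test because the genes that lead a cluster also made it. Cluster 1 held 165 cells, cluster 2 122, cluster 3 34 and cluster 4 32. The 17 fenestrated endothelium genes summed to 17100 CPM in cluster 1, 13366 in cluster 2, 8267 in cluster 3 and 9035 in cluster 4, against 1310 CPM in the other endothelial cells, with 3 or 4 of the genes at 0 UMIs in each cluster. No cluster was given a cell type name.

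Clusters 1 and 2 differed in genes known from other cell types and in some endothelial genes. Cluster 1 was led by Ttr, the thyroid hormone carrier secreted by choroid plexus epithelium (4498 CPM against 177 in the other Plvap-high cells), Htr2c (106 against 2.06 CPM) and Enpp2 (498 against 115 CPM). Its 5 choroid plexus epithelial markers together reached 5074 CPM, against 387 CPM in cluster 2. Gpihbp1 was at 667 CPM in cluster 1 and 116 CPM in cluster 2.

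The choroid plexus sum came mainly from 2 of the 9 libraries, the low bins of ATV-TfR pool 2 (13887 CPM in Plvap-high cells) and control IgG pool 2 (9057 CPM). In the other 7 it lay between 178 and 347 CPM. Of the Htr2c UMIs in Plvap-high cells, 62 came from control IgG pool 2 and 3 from all other pools. In the other endothelial cells of the 9 libraries the choroid plexus sum ran from 150 to 4266 CPM, and the part of such RNA in cluster 1 was not tested.

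Cluster 2 was led by Lyz2 (212 against 1.88 CPM), Cd74 (204 against 15.9 CPM), the opioid precursor Penk (591 against 82.5 CPM), the muscarinic receptor Chrm3 (338 against 67.5 CPM) and Vwf (86.1 against 9.38 CPM). Lyz2 is a myeloid gene. The complement genes C1qb (74.3 against 9.25 CPM) and C1qc (62.5 against 7.19 CPM), also known from myeloid cells, were among the leading genes of cluster 1. The 5 oligodendrocyte markers summed to 437 CPM in cluster 2 and 140 CPM in cluster 1.

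Clusters 3 and 4 carried the most RNA per cell and the genes of another class. Their median depths were 6667 and 7046 UMIs, against 3171 in cluster 1 and 3774.5 in cluster 2. Cluster 3 was led by barrier genes, Cldn5 (4202 against 98.6 CPM), Slco1a4 (1625 against 76.6 CPM) and Slc2a1 (802 against 45.5 CPM), and its Plvap stood at 1447 CPM against 3745 CPM in cluster 1. Vtn, a mural gene, was among its leading genes (531 against 6.07 CPM), and the 7 mural markers summed to 1058 CPM, against 133 CPM in cluster 1 and 60.1 CPM in cluster 2. The 18 barrier transporters summed to 9134 CPM in cluster 3, between cluster 1 (1607) and the other endothelial cells (13412).

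Cluster 4 was led by astrocyte-rich genes such as Gpc5 (3903 against 85.2 CPM), Slc4a4 (2084 against 47.1 CPM) and Gpr37l1 (1198 against 21.7 CPM). Its 5 astrocyte markers summed to 8396 CPM, and 29 of its 32 cells came from low bins. By UMI total or UMIs of other cell types' markers, 27 of the 32 cells of cluster 4 and 9 of the 34 of cluster 3 were suspected doublets, against 14 of 165 in cluster 1 and 9 of 122 in cluster 2. The part of droplets with 2 cells in clusters 3 and 4 was not tested. Without clusters 3 and 4 the share slopes were -3.38 for ATV-TfR, -2.18 for ATV-CD98hc and 0.71 for control IgG, and 1188 of the 1610 genes called over all Plvap-high cells and tested again kept their call.

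**Figure D5:**
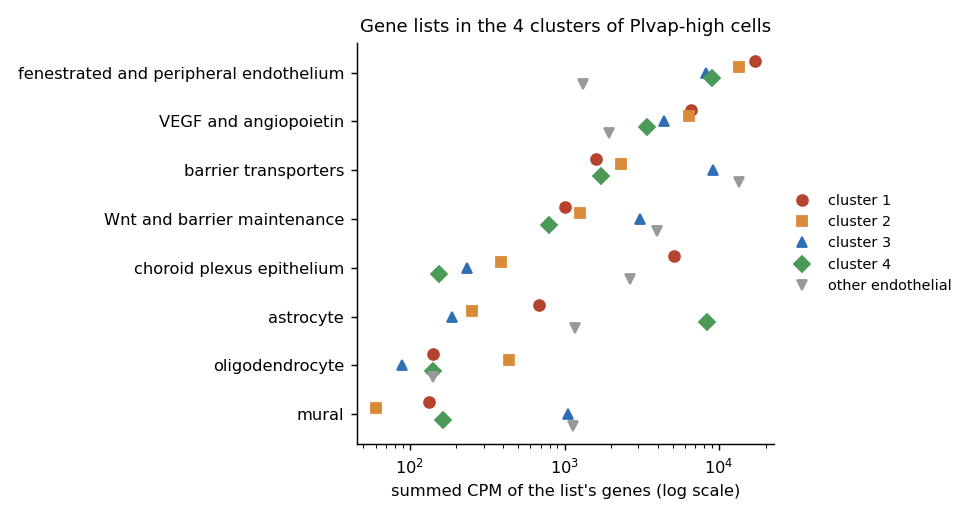
Summed CPM of the genes of 8 lists (horizontal axis, log scale) in each cluster of Plvap-high cells and in the other endothelial cells of the same 9 libraries (vertical axis, lists). Fenestrated endothelium genes are above the other endothelial cells in all 4 clusters, barrier transporters reach 9134 CPM in cluster 3, and astrocyte genes reach 8396 CPM in cluster 4.

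Within Plvap-high cells of ATV-TfR the low bin was compared with the negative bin, the only bins with 20 cells in both pools. With edgeR, 168 genes were higher (3.66%) and 13 lower (0.284%) in the low bin, of 4584 tested (3.95% in all). With the pool as a block, since both bins of a pool came from the same mice, 206 were higher and 32 lower. The genes that rose were led by astrocyte genes. Gpr37l1 had 0 CPM in both negative libraries and 395 and 512 CPM in the low libraries of pools 1 and 2. It passed the filter on low counts only through libraries other than these negative ones, so its rise is a description. Slc1a2, the main glutamate transporter, rose by 4.88 on the log2 scale (SE 0.35). All 4 tested astrocyte markers rose, their list summing to 203 and 327 CPM in the negative and 3011 and 3503 CPM in the low libraries. In the other endothelial cells of the same libraries this sum rose as well, from 1329 and 935 CPM to 3321 and 4066 CPM.

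The 5 oligodendrocyte markers summed to 1003 and 496 CPM in the negative and 128 and 88.2 CPM in the low libraries. In the other endothelial cells they summed to 558 and 181 CPM in the negative and 105 and 85.4 CPM in the low libraries. Both bins therefore differed in RNA of other cell types, and its part in the calls was not tested. Over clusters 1 and 2 alone, the 168 genes had a median log2 ratio of pooled CPM (20 CPM added) of 1.06, down from 2.31. Without pool 1, 1 gene was called.

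Some genes of the endothelial lists also passed between these bins. Cluster 4, which carried astrocyte RNA, held 7 cells from the low bin of ATV-TfR and 0 from the negative bin. Its part in the rises below was not tested. Slco1c1, a thyroid hormone carrier, had 0 CPM in both negative libraries and 69.1 and 115 CPM in the low libraries. Like Gpr37l1 it passed the filter on low counts only through libraries other than these negative ones, so its rise is a description. Spock2 rose by 3.01 (SE 0.67) and Sparcl1 by 0.88 (SE 0.24) on the log2 scale, and Car4, a capillary carbonic anhydrase, fell by 1.15 (SE 0.32). Entpd1, the ectonucleotidase CD39, fell by 1.28 (SE 0.37, edgeR adjusted p = 0.048), a call lost without either pool. Tfrc did not pass (log2 fold change 1.25, SE 1.60, edgeR adjusted p = 0.88, 0 to 17.6 CPM over the libraries), and its direction turned without pool 2 (-2.90). None of the 13 fenestrated endothelium, 10 VEGF and 8 caveolar genes tested passed, where 3.95% of all genes did. Bins of ATV-CD98hc had too few cells for a test at 20 cells per library. With libraries of at least 10 cells, 118 of 4840 genes (2.44%) differed between medium and low by edgeR, and 19 of 3527 (0.539%) over clusters 1 and 2 alone.

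Treatments were compared on UMIs summed per pool, over the 5 pools with at least 20 Plvap-high cells. Control IgG entered with pool 2 only, since pool 1 held 7 such cells, so its spread was taken from the other treatments. The bins that gave the cells differed too: 74 of 117 in ATV-TfR came from the negative bin and 113 of 170 in ATV-CD98hc from the low bin. With edgeR, ATV-TfR differed from ATV-CD98hc in 48 of 7344 genes (0.654%), 6 higher (0.0817%) and 42 lower (0.572%). It differed from control IgG in 33 (0.449%), 17 higher (0.231%) and 16 lower (0.218%), and ATV-CD98hc differed from control IgG in 98 (1.33%), 85 higher (1.16%) and 13 lower (0.177%).

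These counts did not hold in all settings. Leaving out ATV-TfR pool 1 left 1, 0 and 5 genes in the order given, and 540 genes had an unadjusted edgeR p below 0.05 where 0 were called. Without ATV-TfR pool 2 they were 14, 7 and 66, without ATV-CD98hc pool 1 60, 155 and 99, and without ATV-CD98hc pool 2 202, 157 and 212. Without control IgG pool 2 the first was 27. Over clusters 1 and 2 alone they were 12, 29 and 15.

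Between the knock-in lines, Plvap-high cells of ATV-TfR had less Tfrc, with 6.58 and 9.33 CPM in pools 1 and 2 against 50.1 and 86.0 CPM in ATV-CD98hc, a log2 fold change of -3.07 (SE 0.56, edgeR adjusted p = 0.0038). The call was lost without either ATV-TfR pool (edgeR adjusted p = 0.64 and 0.12), in the low bin alone (edgeR adjusted p = 0.79), in positive bins, at 5 or more Plvap UMIs and with DESeq2. Tfrc passed the filter on low counts only through pools other than those of ATV-TfR, so this fall is a description. Control IgG pool 2 had 60.2 CPM. The other endothelial cells of the same pools went the same way, with 197 and 224 CPM against 566 and 427 CPM. The Tfrc gene itself is altered in the TfR mice, and how its RNA was counted there is not given in the sources used here. In clusters 1 and 2 alone Tfrc was at 3.97 and 0 CPM in ATV-TfR, 10.2 and 4.31 CPM in ATV-CD98hc and 23.4 CPM in control IgG pool 2, levels close to those of single UMIs.

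Slc3a2, altered in the CD98hc mice, had 279 and 266 CPM in ATV-TfR against 150 and 143 CPM in ATV-CD98hc and did not pass (log2 fold change 0.90, SE 0.25, edgeR adjusted p = 0.13). Its partner Slc7a5 had 105 and 74.6 CPM in ATV-TfR against 282 and 274 CPM in ATV-CD98hc, a log2 fold change of -1.59 (SE 0.28, edgeR adjusted p = 0.0026). This call was lost without either ATV-TfR pool, over clusters 1 and 2, in positive bins and with DESeq2, and in the low bin alone the value was 0.34. Of 15 barrier transporters tested 7 were lower, against 0.572% of all genes, with Slc2a1 at 36.2 and 65.3 CPM against 206 and 289 CPM. In clusters 1 and 2 alone Slc2a1 was at 19.9 and 39.0 CPM against 35.7 and 25.9 CPM, with overlap, and 3 genes in all were called lower there.

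Pglyrp1 had 19.7 and 4.66 CPM in ATV-TfR against 142 and 242 CPM in ATV-CD98hc (log2 fold change -3.80, SE 0.47), a call lost without ATV-TfR pool 1 and in the low bin alone. It passed the filter on low counts only through pools other than those of ATV-TfR, so this value is a description. It is a leading gene of cluster 3, of which 25 of 34 cells came from ATV-CD98hc. Of 17 fenestrated endothelium genes 13 were tested, and none of these passed in any of the 3 comparisons of pools. Between the ATVs only 0.654% of all genes passed, so a count of 0 among 13 is near that share.

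The genes higher in ATV-CD98hc than in control IgG included astrocyte genes. Slc1a2 had 1158 and 646 CPM against 117 CPM in the control pool (log2 fold change 2.98, SE 0.44) and Aldoc 417 and 258 CPM against 37.6 CPM (log2 fold change 3.18, SE 0.48), 2 of the 4 astrocyte markers tested. Bmpr1b, Btbd17 and Rorb were among the largest rises. In ATV-TfR against control IgG the log2 fold changes were 2.63 for Slc1a2 and 2.99 for Aldoc. Both of these calls were lost without ATV-TfR pool 1 and without ATV-TfR pool 2. They were also lost at 5 or more Plvap UMIs, with the replicate number as a block and without suspected doublets. That of Slc1a2 was lost with DESeq2 as well, and that of Aldoc over clusters 1 and 2. In the other endothelial cells the astrocyte markers summed to 3204 and 3338 CPM in the ATV-CD98hc low libraries and 657 CPM in the medium one. Control IgG pool 2 had 1631 CPM in the negative library and 37.2 CPM in the low one. The calls of Slc1a2 and Aldoc in ATV-CD98hc were lost without ATV-TfR pool 1 (log2 fold changes 2.96 and 3.17) and at 5 or more Plvap UMIs (2.65 and 2.71). They were also lost with the replicate number as a block (2.98 and 3.13). Without suspected doublets (1.76 and 2.27) and over clusters 1 and 2 (1.41 and 1.74) the calls were lost and the values smaller. Of the 32 cells of cluster 4, which carried astrocyte RNA, 23 came from ATV-CD98hc, and their part in these calls was not tested.

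Against control IgG, Htr2c had 233 CPM in the single control pool and 0 to 5.28 CPM in the 4 pools of both ATVs. The log2 fold changes were -6.61 for ATV-TfR and -6.24 for ATV-CD98hc. Htr2c passed the filter on low counts only through the control pool, where it was high, so these values are a description. Ttr had 4476 CPM there and 216 and 180 CPM in ATV-CD98hc (log2 fold change -4.46, SE 0.84), but 158 and 6731 CPM in the ATV-TfR pools. Both are choroid plexus genes. Lef1 had 16.4 and 18.7 CPM in ATV-TfR against 154 CPM in the control pool (log2 fold change -3.08, SE 0.47). It passed the filter on low counts only through pools other than those of ATV-TfR, so this value is a description. The call of Lef1 in ATV-TfR was lost without ATV-TfR pool 1 (log2 fold change -2.98) and with DESeq2 (-3.11). It was also lost over clusters 1 and 2 (-2.76) and without suspected doublets (-2.003). The call of Htr2c in ATV-TfR was lost without ATV-TfR pool 1 (-5.49) and with DESeq2 (-6.85). At 5 or more Plvap UMIs and without suspected doublets Htr2c did not pass the filter on low counts, so neither of its calls was tested there, and DESeq2 gave no adjusted p for it in ATV-CD98hc. The log2 fold change of Ttr in ATV-CD98hc turned from -4.46 to 0.28 at 5 or more Plvap UMIs and to 0.42 without suspected doublets. These comparisons rest on 1 control pool.

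The gap between Plvap-high and other endothelial cells was itself compared between treatments, where a gene could pass the filter on low counts through a single sum. Both classes were summed over all bins of a pool. In ATV-TfR 74 of 117 Plvap-high cells came from the negative bin, but 35433 of the other endothelial cells came from the high bin. In control IgG most other endothelial cells came from the negative (2972) and low (3560) bins. Class and bin therefore cannot be told apart in the gap. With edgeR it differed between ATV-TfR and control IgG in 128 of 16447 genes (0.778%, with 0.499% higher and 0.28% lower), between ATV-CD98hc and control IgG in 179 (1.09%, with 0.894% higher and 0.195% lower) and between the ATVs in 88 (0.535%, with 0.0973% higher and 0.438% lower). Over clusters 1 and 2 alone the counts were 53, 35 and 20. Tfrc did not pass between the ATVs (difference of log2 fold changes -1.98, SE 0.58, edgeR adjusted p = 0.15), so that its fall was not shown to differ between them. Slc7a5 passed (-1.52, SE 0.28, edgeR adjusted p = 3.2e-05), but the call was lost without ATV-TfR pool 2, over clusters 1 and 2, without the pool block and in positive bins, and in the low bin alone the difference was 1.97 in the other direction.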

How the data were processed

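Single-cell 3' RNA libraries of sorted mouse brain cells were deposited by the authors as UMI counts per gene and barcode for 23 libraries and 32285 genes, made with Cell Ranger 7.1.0 per the file headers. The submitters' processing notes name mm10 and GRCm38. The counts were used as deposited. The members and gene lists were chosen with earlier results of these data known.

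UMIs were summed per library and class for comparisons of classes and bins, and per pool for treatments, with at least 20 cells in each sum. edgeR 4.0.16 (quasi-likelihood, TMM factors, filterByExpr with a minimum count of 10, R 4.3.3) was the main test at an adjusted p (Benjamini-Hochberg) below 0.05, and DESeq2 1.42.0 an alternative. Log odds of shares were tested with exact permutation of bins over libraries, two-sided. Scripts were tested on simulated data.

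Plvap-high cells were clustered with scanpy 1.11.5 (2000 variable genes, 30 components, 15 neighbours, Leiden resolution 0.5). No doublet caller was run. The alternative without suspected doublets left out cells above the 95th percentile of UMIs of their library or with over 2 UMIs of the 8 other-cell genes. Cluster-restricted and low-bin alternatives were chosen after seeing the data.

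Genes named are those of the fixed lists, and the 12 largest rises and 12 largest falls per class comparison (6 and 6 for others) among called genes whose mean log2 CPM reached 5, with 1 direction in all pools. Rule genes, mitochondrial, ribosomal and sex-specific genes and predicted models were left out, and Tfrc, Slc3a2, Slc7a5 and Fcgrt were always named. Genes that lead a cluster were named after their values were seen.

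Bins of a pool share animals per the labels (correlation of deviations 0.0532 over 4595 genes), whereas pools of different treatments share only a number. Pools hold separate mice. Treatment p-values measure the spread between pools, and those of classes, bins and shares the spread between libraries, some of them bins of the same mice. Results for some genes are not reported here.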

Additional observations from a re-analysis of the deposited data

Results flagged for a closer look

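The gap between Plvap-high and other endothelial cells differed between treatments by an edgeR interaction term in 128 genes (ATV-TfR against control IgG), 179 genes (ATV-CD98hc against control IgG) and 88 genes (ATV-TfR against ATV-CD98hc). The sums ran over all bins, from which the classes came in different proportions in each treatment. For Slc7a5 the differences of log2 fold changes were -1.28 (ATV-TfR against control IgG, edgeR adjusted p = 0.035) and -1.52 (ATV-TfR against ATV-CD98hc, edgeR adjusted p = 3.2e-05). The first call was lost in 12 of 13 alternatives (edgeR or DESeq2 adjusted p 0.087 to 1) and the second in 4 of 14, and in the low bin alone both had the opposite sign (1.34 and 1.97).

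The slope of the Plvap-high share over the bins was -3.21 for ATV-TfR, -2.03 for ATV-CD98hc and 0.662 for control IgG, and each pool had the sign of its treatment. The difference of slopes between treatments was not tested, since 2 pools against 2 cannot give an exact two-sided p below 0.333.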

How the results depend on the processing

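The number of genes called between Plvap-high and other endothelial cells was 1088 without suspected doublets, 3037 with UMIs summed per pool and 1077 in cells of 2000 to 8000 UMIs, and against venous-gated cells 1853 with no filter on low counts and 3159 per pool. Between the ATV-TfR bins DESeq2 called 69, and leaving out pools gave 1 to 212. Between the ATV-CD98hc bins clusters 1 and 2 gave 19.

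For treatments, in the order ATV-TfR against control IgG, ATV-CD98hc against control IgG and ATV-TfR against ATV-CD98hc, the counts were 4, 23 and 13 with DESeq2, 106, 182 and 97 with no filter, 1, 0 and 20 at 5 or more Plvap UMIs, 11, 12 and 23 without suspected doublets, 29, 15 and 12 in clusters 1 and 2, 123, 123 and 6 in positive bins, and 161, 220 and 2 in the low bin. Where 0 were called, 516 of 7348 genes had an unadjusted edgeR p below 0.05, and DESeq2 was not run on those cells. With the replicate number as a block they were 4, 5 and 30; treatments share only that number. Leaving out pools gave 0 to 157, 5 to 212 and 1 to 202.

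For the differences of the class gap, in the same order, they were 25, 43 and 20 with DESeq2, 15, 8 and 22 without suspected doublets, 53, 35 and 20 in clusters 1 and 2, 29, 72 and 13 without the pool block, 43, 46 and 30 in positive bins, and 148, 98 and 34 in the low bin. At 5 or more Plvap UMIs the last was 52. Leaving out pools gave 81 (ATV-TfR pool 2) to 153, 98 (ATV-CD98hc pool 1) to 259, and 38 (ATV-TfR pool 1) to 118; without ATV-TfR pool 2 the last was 52.

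Share slopes without a pool ran from -3.27 to -3.15 (ATV-TfR) and from -2.15 to -1.92 (ATV-CD98hc), where 1 pool cannot give an exact p below 0.0833. The block within pools left them called (exact p = 0.00347). Among all filtered barcodes the control IgG slope turned to -0.402. Other values that turned were Trf (0.23 per pool), Tfrc between ATV-TfR bins (from -2.90 without ATV-TfR pool 2 to 4.46 without pool 1), Ttr in ATV-CD98hc against control IgG (0.28 at 5 or more Plvap UMIs, 0.42 without suspected doublets; its class gap 0.05) and, in the low bin, Slc7a5 (0.34 between ATVs; class gap 1.34 against control IgG and 1.97 between ATVs). The cause of these changes was not tested.

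Not fitted, for lack of libraries with 20 cells, were the ATV-TfR bins at 5 or more Plvap UMIs, without suspected doublets or in clusters 1 and 2, and contrasts with control IgG without its pool 2. Depth limits low genes most: Tfrc rests on 64 UMIs in Plvap-high cells.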

Other observations

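Major histocompatibility class I genes were higher in Plvap-high than in other endothelial cells: H2-K1 rose by 0.93 and B2m by 1.07 on the log2 scale, with H2-D1 also called by edgeR, while Vcam1, a leukocyte adhesion molecule, fell by 3.23. These were 3 higher and 1 lower of 5 tested among 13 listed, with a median of 0.71. Over all genes of this comparison 13.4% were called higher and 13.5% lower. Of 14 immediate early and stress genes 9 were tested, of which Fos, Jun, Junb, Nr4a1, Zfp36 and Dusp1 were higher and Jund and Ier3 lower, with a median of 0.58, in cells dissociated with inhibitors of transcription and translation.

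Chrm3, a muscarinic acetylcholine receptor chosen after its values were seen, had 142 CPM in Plvap-high cells (43.4 to 264) against 1.80 CPM (0.577 to 24.1), with no overlap over the 9 libraries.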
